A study of Mus musculus with 16 samples.

Results

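Odor-exposed and vehicle-exposed mice were compared within 1 sorted population, the GFP+ cells of the olfactory mucosa of S100a5-tauGFP mice. Of the 16 samples of the series, the 8 whose titles name GFP+ cells entered the comparison, 4 from odor pools and 4 from vehicle pools, and the 8 GFP- samples were left out of its fit. All genes with 1 symbol in the platform annotation were tested, 19505 in number. Each sample was the RNA of sorted cells from a pool of 3 mice on 1 Clariom S array, so the 8 pools came from 24 mice, of both sexes and aged 7 to 12 weeks.

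Every mouse carried the same reporter, in which the promoter of the calcium-binding protein gene S100a5 drives a GFP, and was housed alone in a chamber under clean air at 3.1 L/min for 40 hours. Beginning at hour 26, the odor arm received indole/ionone and the vehicle arm filtered air in 10-second pulses, repeated every 20 min. The mucosa was then dissociated and the cells were sorted by fluorescence, and 50 to 100 ng of total RNA was labelled. Which ionone isomer was used, at what dose, and whether indole and ionone were mixed is not stated in the sources used here. Because cells of both arms had to pass the same GFP gate, vehicle GFP+ cells were also cells in which the S100a5 reporter was active. Because 2 vehicle pools are titled replicate 3, the pool with the later code is called replicate 4. P-values measured the spread between pools of 3 mice.

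Each mature olfactory sensory neuron expresses a single odorant receptor gene, and an odorant that binds this receptor acts through the G protein subunit Gnal and the adenylyl cyclase Adcy3 to raise cyclic AMP. Cyclic AMP opens a cation channel built around Cnga2, calcium enters the cilia, and the neuron fires. Neurons that are stimulated often are known to hold more transcript of S100a5, of the adhesion gene Kirrel2 and of the protocadherin Pcdh10, and to carry less of Kirrel3, the counterpart of Kirrel2 in less active axons.

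Array medians ran from 6.05 to 6.20 on the log2 scale, and between 10599 and 10980 genes per array lay above the median of its 23 antigenomic background probes, which was 5.76 to 6.01. Across genes, arrays correlated at 0.990 to 0.994 within an arm and at 0.990 to 0.995 between the arms. On the leading principal component, which held 24.5% of the variance, vehicle replicate 3 lay at 41.4, the other vehicle pools between -20.5 and 1.7 and the odor pools between -20.5 and 16.2. The genes Uty, Kdm5d and Eif2s3y, all on the Y chromosome, had levels of 3.34 to 4.09 in replicate 3 of both arms and of 6.71 to 11.63 in the other pools. Without replicate 3 of both arms limma also called 0 genes, and Pcdh10 differed by 1.42. The cells carried the transcripts of mature sensory neurons, with 20 of 22 listed markers above background on all 8 arrays. Those markers included Omp, the olfactory marker protein, at 18.46 to 18.51, close to the highest levels on the arrays. Markers of neutrophils averaged 5.15 to 6.27 over the 13 measured and those of macrophages 5.82 to 7.20 over 13, and the arms overlapped in both.

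No gene passed in the comparison of odor with vehicle. The fit with limma called 0 of 19505 genes (0%) at a Benjamini-Hochberg adjusted p under 0.05, and the smallest adjusted p was 0.728. At an unadjusted p under 0.05 there were 1070 genes (5.49%), 565 higher after odor (2.9%) and 505 lower (2.59%). In 340 genes all odor pools lay above all vehicle pools (1.74%) and in 287 all lay below (1.47%), together 3.21% of genes. Differences were small, as 97.5% of genes differed by less than 0.5 on the log2 scale and the median over all genes was 0.00. These values are over all 19505 genes, of which 7873 lay under the background on all 8 arrays and 10089 above it. Under the background a difference may not be seen. The differences ran from -2.04 for the receptor Olfr323 to 1.62 for the receptor Olfr1090. The arms of Olfr323 overlapped, with an SD of 2.60 among odor pools against 0.40 among vehicle pools. The SE of its difference was 0.99.

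The precision behind this count can be stated gene by gene. The median SE of a log2 difference was 0.17, and the median 95% confidence interval reached 0.37 to either side. For 18727 genes (96%), a count that includes genes under the background, the interval lay wholly within a 2-fold difference in either direction. Among the odorant receptors, which vary more between pools, this held for 762 of 1080 (70.6%). In all, 18 genes differed by more than 2-fold, 10 higher and 8 lower, and 12 of them were odorant receptors. The 2634 transcript features of the array that have no symbol gave 0 calls, with 138 (5.24%) at an unadjusted p under 0.05. In RNA from a sorted population, a change in the make-up of the cells and a change in transcript per cell cannot be told apart.

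**Figure D1:**
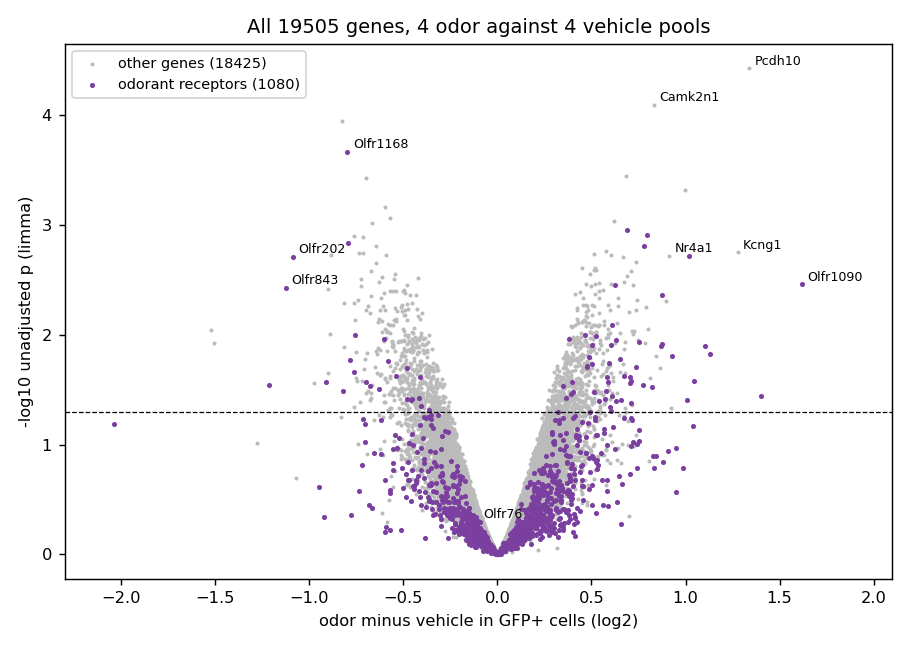
Each point is 1 of 19505 genes, with its odor minus vehicle difference in GFP+ cells on the log2 scale (horizontal) against -log10 of its unadjusted limma p (vertical), odorant receptors in purple and other genes in grey. The dashed line marks an unadjusted p of 0.05. Pcdh10 stands at the top right, at 1.34, and the receptors spread more widely along the horizontal axis than most other genes, from -2.04 to 1.62.

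Pcdh10, a protocadherin that mediates adhesion between axons and whose level in sensory neurons depends on activity, had the smallest p of all genes. Its log2 levels were 11.78, 11.13, 10.92 and 11.29 in odor replicates 1 to 4 and 10.05, 9.64, 9.83 and 10.23 in vehicle replicates 1 to 4. Every odor pool was above every vehicle pool, with a gap between the arms wider than the spread inside the vehicle arm. The difference was 1.34 ± 0.20 (SE, 4 pools against 4), a ratio of 2.53, with a 95% confidence interval of 0.90 to 1.78. It did not pass, with a limma adjusted p of 0.728 over all genes and an unadjusted p of 3.73e-05. Over 17 other settings of the analysis the difference stayed between 1.17 and 1.46 and limma's adjusted p between 0.118 and 1.00. Pcdh10 was named as the gene to follow here with earlier results of these samples known, so its place among all genes is a description.

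The 250 bases upstream of the transcription starts of Pcdh10, of the reporter's own gene S100a5 and of the activity-dependent nuclear receptor gene Nr4a1 are shown. Cyclic AMP acts on transcription through response elements, and the arms of these genes did not overlap. The same held for 627 genes (3.21%), Kirrel2 and Plcxd3 among them, whose own windows are not shown. Whether the element had a part in any difference was not tested. They are from RefSeq (build GRCm38.p6), on the plus strand, 5′ to 3′, and capitals mark the core of that element, TGACG or its complement CGTCA. Pcdh10 is at chr3:45378148-45378397, S100a5 at chr3:90608272-90608521 and Nr4a1 at chr15:101266596-101266845.
Pcdh10: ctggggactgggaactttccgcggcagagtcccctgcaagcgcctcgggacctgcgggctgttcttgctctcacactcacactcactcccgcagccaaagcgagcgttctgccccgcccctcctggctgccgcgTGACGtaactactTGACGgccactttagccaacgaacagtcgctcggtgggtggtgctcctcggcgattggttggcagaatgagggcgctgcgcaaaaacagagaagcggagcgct
S100a5: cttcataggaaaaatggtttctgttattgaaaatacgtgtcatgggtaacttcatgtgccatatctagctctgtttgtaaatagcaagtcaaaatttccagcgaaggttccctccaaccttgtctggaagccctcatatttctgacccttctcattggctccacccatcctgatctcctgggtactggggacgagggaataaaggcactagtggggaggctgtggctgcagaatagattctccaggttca
Nr4a1: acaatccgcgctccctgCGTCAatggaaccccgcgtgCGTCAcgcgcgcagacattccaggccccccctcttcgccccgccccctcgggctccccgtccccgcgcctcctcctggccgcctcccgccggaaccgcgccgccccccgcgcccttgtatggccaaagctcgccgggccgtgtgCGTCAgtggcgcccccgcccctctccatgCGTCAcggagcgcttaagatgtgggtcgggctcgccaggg

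The Pcdh10 window held 2 copies of TGACG, which begin 116 and 103 bases before the start. The Nr4a1 window held 4 copies of CGTCA, at 233, 213, 69 and 40 bases before it, and the S100a5 window held 0 of either. Among the windows of the same length before 32851 RefSeq transcription starts, 5836 (17.8%) held the core on at least 1 strand and 508 (1.55%) held the full element TGACGTCA, which overlaps the core and was in none of these 3 windows. A match in a window of this length is a description of the letters alone.

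The other genes known to follow activity in sensory neurons gave smaller differences. Of the 15 measured members of this list, 4 were higher at an unadjusted p under 0.05 and 0 lower, against 2.9% higher among all genes, and 9 of 15 had a positive difference, with a median of 0.07 (all genes 0.00). Leaving out 1 pool moved this median to 0.02 (without vehicle replicate 1), 0.15 (odor replicate 2), 0.10 (vehicle replicate 2), 0.17 (vehicle replicate 3) or 0.19 (vehicle replicate 4), and by less for the other odor pools. This list was drawn up with results from these samples known and is not independent evidence of a direction. The 4 were Pcdh10, Lrrc3b, Kirrel2 and Plcxd3, and none passed over all genes.

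Kirrel2, an adhesion molecule that sorts axons into glomeruli, lay at 16.08, 15.31, 15.34 and 15.87 in odor pools and at 15.20, 15.15, 14.83 and 15.01 in vehicle pools. The arms did not overlap, although odor replicates 2 and 3 lay close above the vehicle pools. The difference was 0.60 ± 0.19 (SE, limma adjusted p = 0.891). Lrrc3b, which encodes a membrane protein with leucine-rich repeats, lay at 15.34, 14.47, 14.79 and 14.55 after odor and at 14.56, 14.27, 13.55 and 13.65 after vehicle. Its arms overlapped, because vehicle replicate 1 was above odor replicates 2 and 4, and it differed by 0.78 ± 0.26 (adjusted p = 0.891). Plcxd3, which encodes a phospholipase C domain protein, lay at 8.72, 8.88, 8.58 and 9.47 after odor and at 8.45, 8.40, 8.03 and 8.52 after vehicle. Every odor pool was again above every vehicle pool, by little in odor replicate 3, and the difference was 0.56 ± 0.20 (adjusted p = 0.891).

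S100a5, whose promoter drives the reporter and therefore the sort, differed by little. It lay at 16.50, 16.17, 16.21 and 16.32 in odor pools and at 16.04, 16.07, 16.07 and 16.12 in vehicle pools. The arms did not overlap, yet the difference of 0.22 ± 0.12 had a 95% confidence interval of -0.05 to 0.49 (limma adjusted p = 0.927). Omp, which marks mature sensory neurons, lay between 18.46 and 18.51 in all 8 pools, at a difference of 0.01 ± 0.11 with an interval of -0.23 to 0.25. Its sign turned with quantile normalization, at -0.02. As the gene lay near the top of the range of the arrays, its small spread cannot be read as a constant transcript level. Kirrel3 differed by -0.12 ± 0.17 (adjusted p = 0.995), and its levels of 13.23 to 13.73 after odor and 13.35 to 13.89 after vehicle overlapped.

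**Figure D2:**
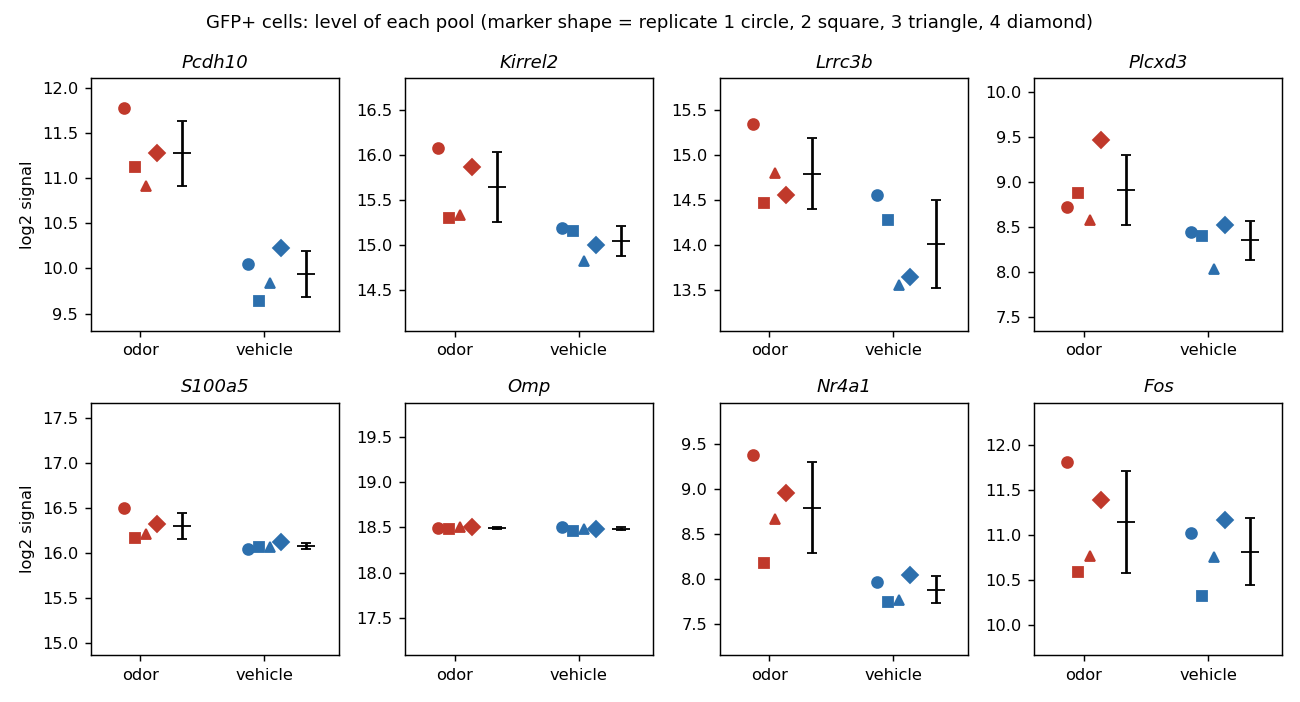
Log2 signal in GFP+ cells of each pool for 8 genes, with odor pools in red, vehicle pools in blue and 1 marker shape per replicate number. Black bars are the mean ± SD of 4 pools, and every panel spans the same number of log2 units. Pcdh10 shows the widest gap between the arms, S100a5 a narrow one, and the points of Omp lie on 1 level.

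Genes listed here as less expressed in active neurons, most of them axon guidance receptors, had no common direction, with 4 of 9 positive. Whether each member of the list falls with activity in these neurons was not tested. Of the 9, 1 was at an unadjusted p under 0.05 (11.1%, all genes 5.49%). It was Sema7a, a membrane-anchored semaphorin, and it was higher after odor, at 0.32 ± 0.12 (limma adjusted p = 0.891). The median of the 9 was 0.00. Nrp2, a guidance receptor for class 3 semaphorins, differed by -0.30 ± 0.24, and the ephrin receptor Epha5 by -0.17 ± 0.15. Among 31 adhesion and guidance genes that act in axon sorting, a list that shares members with both of the above, 4 were higher at an unadjusted p under 0.05 and 0 lower (all genes 2.9% and 2.59%), and the median was 0.00. The 4 were Pcdh10, Kirrel2, Sema7a and the ephrin receptor Epha7, at 0.48 ± 0.19.

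Differences in the transduction cascade were small. Of its 14 genes 0 were at an unadjusted p under 0.05 in either direction, the median was -0.02, and the differences ran from -0.08 for Ric8b, which promotes the activity of the olfactory G protein, to 0.23 for Clca2, which lay under the background at 2.50 to 3.07. Cnga4, a subunit of the cyclic nucleotide-gated channel, differed by -0.06 ± 0.12 and Gfy, the Golgi protein Goofy of these neurons, by -0.07 ± 0.11. Gfy lay above Omp, at 18.6 to 18.7, so its small difference cannot be read as a constant transcript level. Ric8b (17.5 to 17.7) and Cnga4 (17.0 to 17.2) also lay high. Whether a limit at the top of the range made their differences smaller was not tested. Of 17 genes of adaptation and calcium clearance, 1 was higher and 0 lower at an unadjusted p under 0.05 (5.88%, all genes 5.49%). It was Rgs3, a regulator of G protein signalling, at 0.30 ± 0.12, with non-overlapping arms (limma adjusted p = 0.892). In the list of 22 mature neuron markers 1 was higher (4.55%), Kcnmb3, an accessory subunit of calcium-activated potassium channels. It lay at 15.54, 15.17, 15.45 and 15.46 after odor and at 14.85, 14.92, 14.95 and 15.02 after vehicle. Its arms did not overlap, and it differed by 0.47 ± 0.13 (limma adjusted p = 0.891). Fam183b had the largest difference of that list, at -1.28 ± 0.70 (adjusted p = 0.927), with overlapping arms and odor replicate 3 at 5.47, far below the other odor pools at 7.93 to 9.60. Immature neuron markers had 0 higher and 2 lower of 21 (9.52%), Ablim1 at -0.48 ± 0.18, under the background, and Trib3 at -0.53 ± 0.22.

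Immediate early genes, the transcripts that appear soon after stimulation, split in both directions. Of 27, 3 were higher and 2 lower at an unadjusted p under 0.05, 18.5% against 5.49% of all genes, with 14 positive differences and a median of 0.00. Nr4a1, an orphan nuclear receptor, lay at 9.38, 8.19, 8.67 and 8.96 after odor and at 7.97, 7.74, 7.77 and 8.05 after vehicle. Its arms did not overlap, with odor replicate 2 close above the vehicle pools, and it differed by 0.91 ± 0.22 (limma adjusted p = 0.891). Fos differed by 0.33 ± 0.28 and its levels of 10.59 to 11.81 and 10.32 to 11.17 overlapped, while Egr1 differed by -0.10 ± 0.20, a sign that turned without replicate 3 of both arms (0.03). The transcription factor Atf3 was lower after odor by -0.65 ± 0.22 and Nr4a2 by -0.59 ± 0.23, both with overlapping arms and adjusted p = 0.891. Nr4a2 was under the background in all odor pools, at 5.23 to 5.74, so its difference has no exact size. Arc, a synaptic plasticity gene, differed by 0.47 ± 0.17 but lay under the background at 3.95 to 4.81. Of 16 genes of dissociation stress, which share members with this list, 0 were higher and 1 lower (6.25%).

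Other genes with small p-values lay outside the lists. Camk2n1, an inhibitor of calmodulin-dependent kinase II, lay at 8.37, 8.05, 8.28 and 8.29 after odor and at 7.47, 7.32, 7.63 and 7.25 after vehicle. The arms did not overlap and their spread was small, and the difference was 0.83 ± 0.14 (limma adjusted p = 0.741). Kcng1, a modulatory subunit of voltage-gated potassium channels, lay at 11.90, 10.61, 11.44 and 11.95 after odor and at 10.70, 10.48, 9.82 and 9.80 after vehicle. Vehicle replicate 1 exceeded odor replicate 2, so the arms overlapped in spite of a difference of 1.28 ± 0.31 (adjusted p = 0.891). The other genes above background with the smallest p on the higher side were the AMP deaminase Ampd2 (0.68 ± 0.13), Spred1, an inhibitor of Ras signalling (0.74 ± 0.18), the zinc finger genes Zc3h8 (0.67 ± 0.16) and Cxxc5 (0.60 ± 0.15), Prr15 (0.45 ± 0.11) and the receptor Olfr1258.

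On the lower side the corresponding genes were Ctdspl, a phosphatase-like protein (-0.70 ± 0.14), Irak2, a kinase of interleukin-1 signalling (-0.74 ± 0.18), Sh3bp4, an adaptor of endocytosis (-0.73 ± 0.20), Cdkn2d, an inhibitor of cyclin-dependent kinases (-0.55 ± 0.15), Pdk2, a kinase that restrains pyruvate dehydrogenase (-0.50 ± 0.14), Tbrg3 (-0.57 ± 0.16), Fank1 (-0.42 ± 0.11) and 3 odorant receptors. The arms of these 7 did not overlap, and each had a limma adjusted p of 0.891. Ctdspl met the condition on level through the vehicle arm alone, at 5.71 to 6.21, and lay under the background at 5.20 to 5.38 after odor, so the size of its difference is not exact.

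The odorant receptors are the readout of an assay that sorts active neurons, and none of the 1080 passed. At an unadjusted p under 0.05 there were 53 higher and 24 lower receptors, 7.13% against 5.49% of all genes. With the replicate number as a block these were 139 of 1080 receptors and 1235 of 19505 genes, and again none passed. Of the 1080, 629 had a positive (58.2%, all genes 50.7%) and 451 a negative difference, with a median of 0.06. That median was 0.02 without odor replicate 4, 0.03 without vehicle replicate 3, and 0.09 without odor replicate 3 or vehicle replicate 2. In 11 of 1080 receptors all odor pools lay above all vehicle pools and in 5 all lay below. Both shares were smaller than those of all genes, 1.74% and 1.47%. These counts include receptors near the background, as 141 of the 1080 lay under it on all 8 arrays and 792 above it. In 885 receptors the mean of at least 1 arm was above the background median. Of these 885, 40 were higher and 17 lower at an unadjusted p under 0.05 (6.44%). All odor pools lay above all vehicle pools in 5 of the 885 and below in 4.

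Olfr1090 had the largest positive difference among all genes. Its levels were 10.25, 10.19, 8.51 and 10.18 after odor and 8.13, 9.20, 7.50 and 7.83 after vehicle. Odor replicate 3 lay far below the other odor pools and under vehicle replicate 2, so the arms overlapped, and the difference was 1.62 ± 0.43 (limma adjusted p = 0.891). Olfr1258, the receptor with the smallest p on the higher side, lay at 11.39, 11.02, 11.57 and 11.24 after odor and at 10.56, 10.70, 10.38 and 10.82 after vehicle. The arms did not overlap and the difference was 0.69 ± 0.16 (adjusted p = 0.891). The 8 receptors next in order were Olfr112, Olfr612, Olfr960, Olfr39, Olfr855, Olfr1052, Olfr558 and Olfr1252, with differences from 0.46 for Olfr612 to 1.10 for Olfr1252.

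On the lower side, Olfr1168 had the smallest p among receptors. It lay at 9.95, 9.58, 9.44 and 9.65 after odor and at 10.42, 10.25, 10.60 and 10.54 after vehicle. Every odor pool was below every vehicle pool, and the difference was -0.80 ± 0.15 (limma adjusted p = 0.845). Olfr843 lay at 8.93, 9.04, 9.29 and 9.79 after odor and at 10.96, 10.85, 9.54 and 10.19 after vehicle. Odor replicate 4 exceeded vehicle replicate 3, and the difference was -1.12 ± 0.30 (adjusted p = 0.891). Olfr202, at -1.09 ± 0.27, lay under the background after odor (4.76 to 5.13), so its level there had no order. The others were Olfr726, Olfr740, Olfr448, Olfr458, Olfr434, Olfr649 and Olfr769, at differences from -0.41 for Olfr434 to -1.21 for Olfr769. Olfr769 and Olfr458 had odor means of 5.79 and 5.63, under the background median of 5.81. Like Olfr202 they met the condition on level through the vehicle arm alone, so the sizes of these 3 differences are not exact. Olfr448 was also under the background in odor replicates 3 and 4, at 5.75 and 5.24, so the size of its difference is not exact either.

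The receptors were also read by class. Class I, the receptor family also present in fish, was taken as the genes with a RefSeq synonym from MOR1 to MOR42, 121 in number. Of these 10 were higher and 1 lower at an unadjusted p under 0.05, 9.09% against 5.49% of all genes. A positive difference was found in 89 (73.6%, all genes 50.7%), and the median was 0.19. Their mean level was 7.96, 8.23, 7.98 and 8.38 in odor pools and 8.13, 8.07, 7.73 and 7.93 in vehicle pools, so the arms overlapped. The median rested in part on single pools, as it was 0.08 without vehicle replicate 3, 0.11 without odor replicate 2 or 4 and 0.30 without odor replicate 1. The 949 class II receptors, the family that expanded in land vertebrates, had 41 higher and 23 lower (6.74%), 56.3% positive and a median of 0.04. The 15 trace amine-associated receptors, which detect volatile amines, had 0 in either direction and a median of 0.14, with 12 positive, and a median of -0.01 with 7 positive when replicate 3 of both arms was left out.

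**Figure D3:**
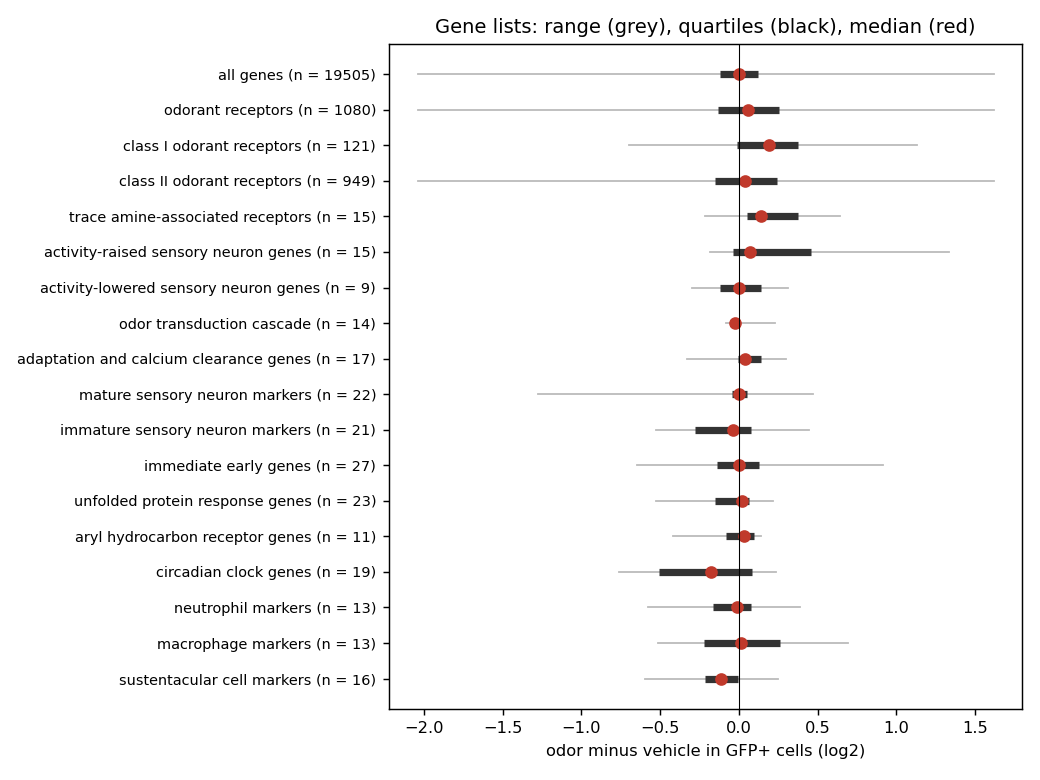
Odor minus vehicle differences in GFP+ cells (log2, horizontal) for all genes and 17 gene lists, with the full range in grey, the quartiles in black and the median in red, and the number of measured genes beside each name. All medians lie between -0.17 (circadian clock genes) and 0.19 (class I odorant receptors), and the transduction cascade is the narrowest. Gfy of that cascade lies near the top of the range of the arrays.

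Genes of the response to foreign compounds were examined because derivatives of indole are known ligands of the aryl hydrocarbon receptor. Of 11 genes of that receptor's pathway 0 were higher and 1 lower at an unadjusted p under 0.05 (9.09%, all genes 5.49%), with a median of 0.04. Cyp1a1, its best-known target, was under the background at 2.75 to 3.74 in all 8 pools and differed by -0.13 ± 0.20. Ahrr, the repressor of the pathway, was at -0.42 ± 0.17 (limma adjusted p = 0.892) and also under the background, at 4.81 to 5.64. Of 16 targets of Nrf2, the regulator of antioxidant genes, 0 were at an unadjusted p under 0.05, with a median of 0.05, and the same held for 26 genes of xenobiotic metabolism (median -0.08). The unfolded protein response, which takes part in receptor choice, had 0 higher and 1 lower of 23 (4.35%), with a median of 0.02.

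In some lists most members differed in 1 direction without any gene passing. Of 60 cytosolic ribosomal protein genes, 59 had a positive difference and 0 were at an unadjusted p under 0.05, with a median of 0.16. Their mean level in vehicle replicate 1 was 11.61, the lowest of the 8 pools, and without that pool 29 of 60 were positive and the median was -0.01. Circadian clock genes had a median of -0.17 over 19 genes, 13 of them negative. That median was -0.30 without odor replicate 3 and -0.13 without odor replicate 4 or vehicle replicate 3. Per2, a repressor of the clock, was at -0.76 ± 0.34 (limma adjusted p = 0.900). Per2 levels of 9.74 to 10.99 after odor and 10.19 to 11.76 after vehicle overlapped, although within each of the 4 replicate numbers the odor pool was below the vehicle pool. With the replicate number as a block the SE was 0.165 and the limma adjusted p 0.757, so the gene did not pass there either. Genes of oxidative phosphorylation (28, median -0.01), of synaptic release (23, median 0.00), of calcium binding (21, median 0.04) and of receptor choice and trafficking (22, median -0.04) had 0 members at an unadjusted p under 0.05 in either direction.

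Markers of other cells of the mucosa gave no call. Sustentacular cell markers averaged 7.51 to 7.72 over odor pools and 7.51 to 7.97 over vehicle pools. Of the 16 measured, 9 lay above the background on all 8 arrays and 4 under it, and Cyp2a5 of the list lay at 12.37 to 13.14. The list had 0 higher and 1 lower of 16 (6.25%, all genes 5.49%) and a median of -0.11, which was -0.03 without vehicle replicate 3. The 1 was Krt8, a keratin of these supporting cells, at 4.56 to 4.93 after odor and 5.20 to 5.65 after vehicle, all under the background, with a difference of -0.59 ± 0.14 (limma adjusted p = 0.891). Neutrophil markers had 0 of 13 in either direction, and the granule protein Ngp, at 5.23 to 8.31 after odor and 6.32 to 7.78 after vehicle, differed by -0.58 ± 0.55. Macrophage markers had 1 higher of 13 (7.69%), Aif1 at 0.52 ± 0.21, under the background in all 8 pools. Lymphocyte markers had 1 higher and 1 lower of 11 (18.2%), and globose basal and dividing cell markers 1 and 1 of 13 (15.4%). Endothelial and stromal markers had 2 higher of 13 (15.4%) and Bowman's gland markers 1 higher of 15 (6.67%). The lymphocyte, endothelial, stromal and gland genes so counted lay under the background in all 8 pools. The secreted mucosal genes Bpifb9a (-1.52 ± 0.48) and Bpifb9b (-1.50 ± 0.50) were among the 18 genes over 2-fold and were chosen after their values were seen. Whether RNA of other mucosal cells had a part in the other results was not tested.

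The GFP- cells of the same pools were compared in the same way. There limma called 1 of 19505 genes (0.00513%), the receptor Olfr76, with 697 (3.57%) at an unadjusted p under 0.05, 399 higher (2.05%) and 298 lower (1.53%). The difference between the fractions was tested on the 8 within-pool differences, GFP+ minus GFP-, in odor against vehicle. It gave 0 calls, with 654 genes (3.35%) at an unadjusted p under 0.05, 358 higher (1.84%) and 296 lower (1.52%). Across genes, which are not independent and were measured in the same mice, the odor minus vehicle differences of both fractions correlated at r = 0.225.

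Several genes named above had positive differences in GFP- cells too. Pcdh10 was higher after odor by 0.94 ± 0.30 there, and its difference between the fractions was 0.40 ± 0.27 (limma adjusted p = 1.00). Kcng1 differed by 1.36 ± 0.29, Lrrc3b by 1.17 ± 0.37 and Kirrel2 by 0.98 ± 0.34, each with a limma adjusted p of 1.00 there. The differences between the fractions were -0.08 ± 0.20, -0.39 ± 0.28 and -0.38 ± 0.24 for these 3. Plcxd3, at -0.03 ± 0.24, and Nr4a1, at 0.05 ± 0.45, were near 0 in GFP- cells. Their differences between the fractions were 0.59 ± 0.21 and 0.87 ± 0.41, and neither passed over all genes (limma adjusted p = 1.00).

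Olfr76 had the smallest p in the test of the difference between the fractions. It lay at 10.53, 10.61, 10.72 and 10.86 after odor and at 10.99, 10.56, 10.58 and 11.02 after vehicle in GFP+ cells, with overlapping arms and a difference of -0.10 ± 0.15. In GFP- cells it differed by -1.95 ± 0.21 (limma adjusted p = 0.0292), and the difference between the fractions was 1.85 ± 0.22 (adjusted p = 0.0860). Olfr851 followed, at 0.83 ± 0.50 in GFP+ and -1.55 ± 0.62 in GFP- cells, a difference of 2.38 ± 0.39 (adjusted p = 0.817). Olfr1090, which led the GFP+ comparison by size, differed by -0.75 ± 0.26 in GFP- cells, whereas Olfr843 was lower after odor in both, at -2.09 ± 0.44 in GFP- cells. The call in GFP- cells was lost without odor replicate 1, 3 or 4 (limma adjusted p = 0.188, 0.164 and 0.216) and without any vehicle replicate, 1 to 4 in turn (0.111, 0.213, 0.0642 and 0.0903), at differences of -1.80 to -2.05.

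**Figure D4:**
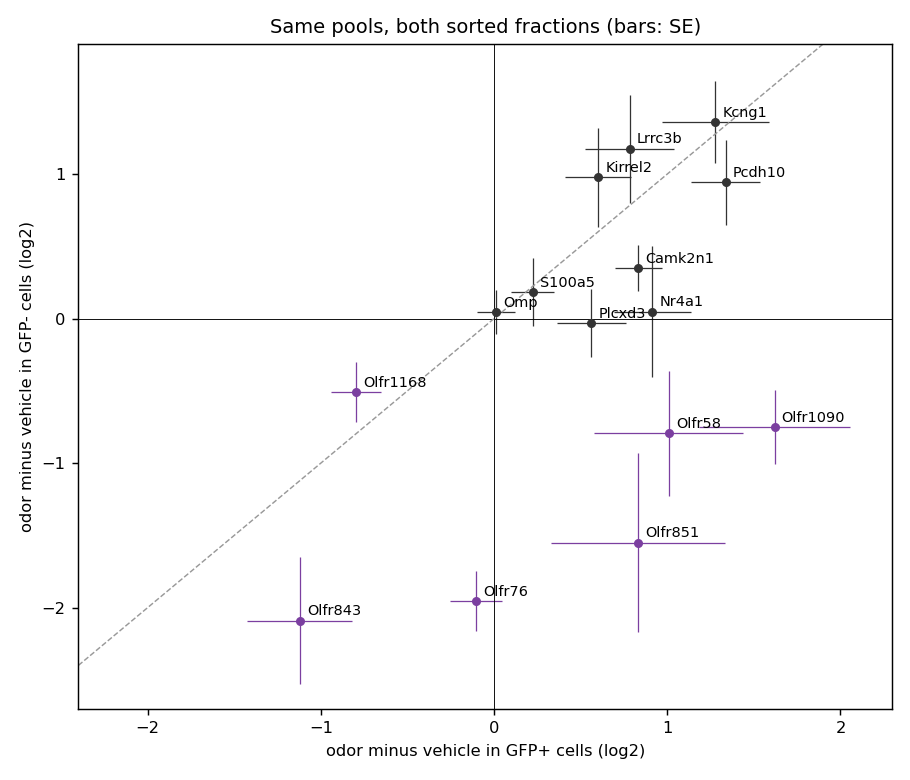
Odor minus vehicle difference of 15 genes in GFP+ cells (horizontal) against GFP- cells (vertical), both in log2 units with SE bars, odorant receptors in purple and other genes in black. The dashed line marks equal differences. Kcng1, Pcdh10, Lrrc3b and Kirrel2 lie near it, and Olfr1090 lies to the right and below 0. Olfr76 lies at -0.10 in GFP+ and -1.95 in GFP- cells.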

How the data were processed

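The deposited log2 values, 1 per probe and array, were used as given. Per the submitters' processing notes the authors made them with Affymetrix Expression Console, for which no version, background correction or normalization is stated in the sources used here. Their log2 scale is likewise unstated and was read from the span of the values. Of 28846 probes, 19572 had 1 gene symbol and 9274 had none. All matched RefSeq (GRCm38.p6) by gene identifier. Where a gene had more than 1 probe (55 genes), the brightest by its mean over 16 arrays was kept, which left 19505 genes.

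Odor and vehicle were compared with limma 3.58.1 in R 4.3.3 (lmFit and eBayes) in the 8 GFP+ samples, in the 8 GFP- samples and on the 8 within-pool differences. Tests were two-sided, with Benjamini-Hochberg adjustment over all genes, with a threshold of 0.05. The code was tested on simulated data. A gene was taken as under the background where its level was below the median of the antigenomic probes, 5.81 over the GFP+ arrays. The genes, lists and members were chosen with earlier results of these data known. Named were up to 15 called genes per direction, the 10 genes and the 10 receptors per direction with the smallest p above background, up to 4 per list, up to 6 per direction by the difference between the fractions, and 11 genes of prior interest.

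Same-numbered pools of both arms deviated from their arm means together, with correlations across genes of 0.114 to 0.242 for the 4 numbers against -0.140 to 0.060 for different numbers. The numbers come from the titles, where 1 vehicle pool had to be renumbered. The replicate number was therefore tried as a block. Array number limits the precision.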

Additional observations from a re-analysis of the deposited data

Results flagged for a closer look

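In 12 of the 248 groups of 4 pools examined, 1 pool lay farther from the other 3 than the 95% critical value of Dixon's test allows, and chance gives about 1 in 20 such groups. Olfr1090 in odor replicate 3 was 8.51, where the other odor pools lay at 10.18 to 10.25. Olfr769 in odor replicate 4 was 7.13 against 5.23 to 5.53, and Atf3 in odor replicate 1 was 9.03 against 8.19 to 8.23. Lypd2 in odor replicate 1 was 6.03 against 5.53 to 5.60, Foxd3 in odor replicate 4 was 4.77 against 4.22 to 4.28, and Brca2 in odor replicate 2 was 4.66 against 4.26 to 4.33.

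In the vehicle arm, replicate 3 stood apart in 4 genes. Nrp2 was 12.05 there against 11.09 to 11.19, Irak2 9.31 against 8.88 to 8.89, Prr15 10.15 against 10.28 to 10.31 and Gfap 4.31 against 4.56 to 4.57. Ablim1 in vehicle replicate 1 was 3.75 against 4.23 to 4.30, and Hspb1 in vehicle replicate 2 was 4.07 against 4.33 to 4.35. All levels given for Brca2, Foxd3, Gfap, Ablim1 and Hspb1 are under 5.81, the median of the background probes, and so are those of the other 3 odor pools for Olfr769 and Lypd2.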

How the results depend on the processing

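In GFP+ cells limma called 0 genes and 0 odorant receptors in each of 17 alternatives, with 560 to 1252 genes and 32 to 139 receptors at an unadjusted p under 0.05. The 560 came from the alternative that tested only the 10859 genes with a mean above background, where the others tested 19505. With the replicate block there were 0 calls, and no call changed. At an unadjusted p under 0.05 it gave 1235 of 19505 genes and 139 of 1080 receptors, in place of 1070 and 77. The difference between the fractions gave 0 calls in 12 alternatives, with 605 to 961 genes unadjusted. In GFP- cells the count was 0 with replicate 3 of both arms left out and 0 to 1 when 1 pool was left out.

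Of the 124 named genes, 118 kept their direction and their side of the threshold throughout. Omp turned to -0.0216 with quantile normalization and Egr1 to 0.0303 without replicate 3 of both arms. When 1 pool was left out, Egr1 ranged from -0.201 to 0.0711, Olfr1099 from -0.227 to 0.499, Cyp1a1 from -0.313 to 0.0175, Eif2s3x from -0.0692 to 0.185 and Olfr616 from -0.0347 to 0.417. The cause was not tested. With 4 pools an arm, differences under the intervals given could not be shown, and levels under the background have no order.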
